A study of Mus musculus with 2 samples.

Results

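The genes described here are 7 G protein-coupled receptor genes of phagocytes, Fpr1, Fpr2, C5ar1, Ltb4r1, Ffar2, Ptafr and Gpr27, taken by symbol from the 32286 features of a single-cell RNA sequencing study of mouse bone marrow. All 7 were found, each once. The study holds 2 libraries of droplet-captured hematopoietic marrow cells, 1 per group. The control library carries 1 copy of Mx1-Cre and an unaltered Rosa26 locus (Mx1Cre+/-;Rosa26+/+), and the other, called the MYC library below, carries the same Mx1-Cre together with LSL-MYC on both Rosa26 alleles (Mx1Cre+/-;Rosa26LSL-MYC/LSL-MYC). Mx1-Cre is thus shared by both groups. It is a Cre recombinase under an interferon-inducible promoter that is active in hematopoietic stem cells and in many other cells, and LSL-MYC is a MYC transgene silenced by a stop cassette that Cre cuts out. The age and strain of the mice, the number pooled per library and any inducing treatment are not given in the sources used here.

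Chemoattractant receptors sit on the surface of neutrophils, monocytes and macrophages, couple mainly to Gi proteins, and steer the cells along gradients of bacterial or host molecules. Fpr1 and Fpr2 encode receptors of formylated bacterial peptides, and the Fpr2 receptor also binds host ligands such as annexin A1. C5ar1 encodes the receptor of the complement fragment C5a, Ltb4r1 the high-affinity receptor of leukotriene B4, and Ptafr the receptor of platelet-activating factor. Ffar2 encodes a receptor of short-chain fatty acids. Gpr27 encodes an orphan receptor, so its place here rests on the gene list and not on a known attractant.

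The levels below are sums of unique molecular identifiers (UMIs, each counting 1 captured transcript molecule by its 3′ end) over the cells of a class, per 1000000 UMIs of that class (CPM). After filters, 14760 control cells (median 5321.5 UMIs) and 12645 cells of the MYC library (median 6014 UMIs) were kept. With 1 library per group nothing could be tested and the genotype cannot be told apart from the library. All intervals are 95% intervals that cover counting error only. The transgene feature MYC had 0 UMIs in control and 295 in MYC-library cells, and 77 barcodes occurred in the kept cells of both libraries.

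Cells were grouped without using the 7 genes, and the classes were named by marker genes. Granulocyte progenitors (Mpo, Elane, Prtn3) numbered 1048 control and 1067 MYC-library cells, immature neutrophils (Camp, Ngp, Ltf) 2119 and 1883, and mature neutrophils (Retnlg, Mmp8, Mmp9) 3784 and 3382. Monocytes (Fn1, F13a1, Ly6c2) numbered 1006 and 1297 cells, and nonclassical monocytes (Ace, Adgre4, Treml4) 145 and 73. The mature class joined 3 clusters that the libraries filled unequally: cluster 1, led by Mmp8 and Mmp9, held 1574 control and 1332 MYC-library cells. Cluster 4, led by Cstdc4, Cxcl2 and Stfa2l1, held 278 and 1722, and cluster 2, led by Il1b, Ptgs2 and Csf3r, held 1932 and 328. A further cluster met the macrophage rule through C1qa, C1qb and C1qc, but its levels of Vcam1, Slc40a1, Cd5l and Mertk in the MYC library were only 7.31, 6.55, 4.79 and 2.27 CPM, while the nonclassical monocyte marker Cd300e reached 367 CPM. These cells are called C1q-rich cells below. They numbered 19 in control and 647 in MYC-library cells, so only the MYC library is described for them, and no comparison of macrophages was made.

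In the GRCm38 annotation all 7 are protein-coding genes. Fpr1 (chromosome 17, 17876471 to 17883940, minus strand) and Fpr2 (chromosome 17, 17887824 to 17893952, plus strand) lie head to head, with 3883 bases between their starts. C5ar1 (chromosome 7, 16246743 to 16259540, minus strand) lies 2588 bases from its paralog C5ar2, and Ltb4r1 (chromosome 14, 55765962 to 55768494, plus strand) lies 823 bases from its paralog Ltb4r2. Ffar2 is on chromosome 7 (30818348 to 30823775, minus strand), Ptafr on chromosome 4 (132564067 to 132582683, plus strand), and Gpr27 is a gene of 1 exon on chromosome 6 (99692679 to 99695066, plus strand). Fpr2 is the member whose counts are least certain. It overlaps Fpr3 on the same strand, 43.0% of its 31-base stretches also occur in transcripts of other genes, most of them in the pseudogene Gm5966, and 7 of the 270 stretches in its last 300 bases do so. None of the stretches in the last 300 bases of the other 6 genes is shared.

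The 250 bases before the RefSeq start site (GRCm38.p6) are shown for 4 members, because they stand for the opposite ends of the stage pattern described next: Fpr1 and Fpr2, the head-to-head pair with its highest levels in mature neutrophils, and Ltb4r1 and Ffar2, with their highest levels in immature neutrophils. Capitals mark matches, on either strand, to a C/EBP motif (TTNNGNAA), to the core of the PU.1 motif (GAGGAA) and to the E-box CACGTG, which MYC and other factors bind. Each sequence is written 5′ to 3′ on the gene's strand.
Fpr1 (chr17:17883940-17884189, minus strand): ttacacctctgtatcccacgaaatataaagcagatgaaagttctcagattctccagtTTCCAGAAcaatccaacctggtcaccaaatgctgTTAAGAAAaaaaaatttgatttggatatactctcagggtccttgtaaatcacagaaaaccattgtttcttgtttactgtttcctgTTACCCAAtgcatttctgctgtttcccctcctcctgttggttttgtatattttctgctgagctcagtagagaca
Fpr2 (chr17:17887574-17887823, plus strand): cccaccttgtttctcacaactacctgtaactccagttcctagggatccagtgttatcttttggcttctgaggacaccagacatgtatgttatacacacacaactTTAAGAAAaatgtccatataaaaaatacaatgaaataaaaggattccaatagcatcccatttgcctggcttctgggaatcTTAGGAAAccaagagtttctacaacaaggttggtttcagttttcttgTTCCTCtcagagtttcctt
Ltb4r1 (chr14:55765712-55765961, plus strand): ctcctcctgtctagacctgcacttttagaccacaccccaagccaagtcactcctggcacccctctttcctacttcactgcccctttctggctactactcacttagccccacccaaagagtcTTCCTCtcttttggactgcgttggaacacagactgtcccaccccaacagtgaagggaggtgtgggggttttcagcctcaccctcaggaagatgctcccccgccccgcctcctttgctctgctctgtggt
Ffar2 (chr7:30823776-30824025, minus strand): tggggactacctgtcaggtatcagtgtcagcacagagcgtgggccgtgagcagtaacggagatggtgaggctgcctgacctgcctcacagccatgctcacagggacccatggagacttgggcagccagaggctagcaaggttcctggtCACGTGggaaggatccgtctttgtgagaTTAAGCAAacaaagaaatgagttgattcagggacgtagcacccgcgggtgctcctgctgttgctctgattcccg

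Fpr1 held 3 C/EBP matches, and Fpr2 held 2 with 1 PU.1 core 19 bases before its start. Ltb4r1 held 1 PU.1 core, as did Ptafr, and C5ar1 held 1 C/EBP match. Ffar2 has 4 RefSeq start sites, and the window shown is that of the start at 30823775, which is also the start of its GENCODE model. It held 1 C/EBP match and, 102 bases before that start, 1 E-box, the only CACGTG in the windows of the 6 members with an entry. The windows of the other starts of Ffar2 held no E-box: that at 30821648 held 1 C/EBP match, that at 30821192 held 1 PU.1 core, and that at 30821139 held 1 of each. Of 32851 RefSeq windows of the same length, 36.8% held the C/EBP motif, 23.3% the PU.1 core and 6.02% the E-box. A match is a description of the letters and not of a bound site, and binding was not measured here.

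Each of the 7 genes had most of its UMIs in the neutrophil stages, from 75.5% for Ptafr in the MYC library to 94.1% for Gpr27 in the MYC library. Within those stages the genes peaked at different points when counted per 1000000 UMIs. On that scale Ltb4r1 and Ffar2 were highest in immature neutrophils in both libraries, and the other 5 in mature neutrophils. The RNA captured per cell fell along the same stages, with median UMIs per cell of 18213.5, 8730 and 3853 in progenitors, immature and mature neutrophils of the control and of 18637, 10539 and 5278 in the MYC library. Folds per cell, given below beside the folds of CPM, are therefore smaller at each later stage, and the order of the stages differs between the scales for Fpr2 and Ffar2 in the control and for Ltb4r1 in the MYC library.

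**Figure D1:**
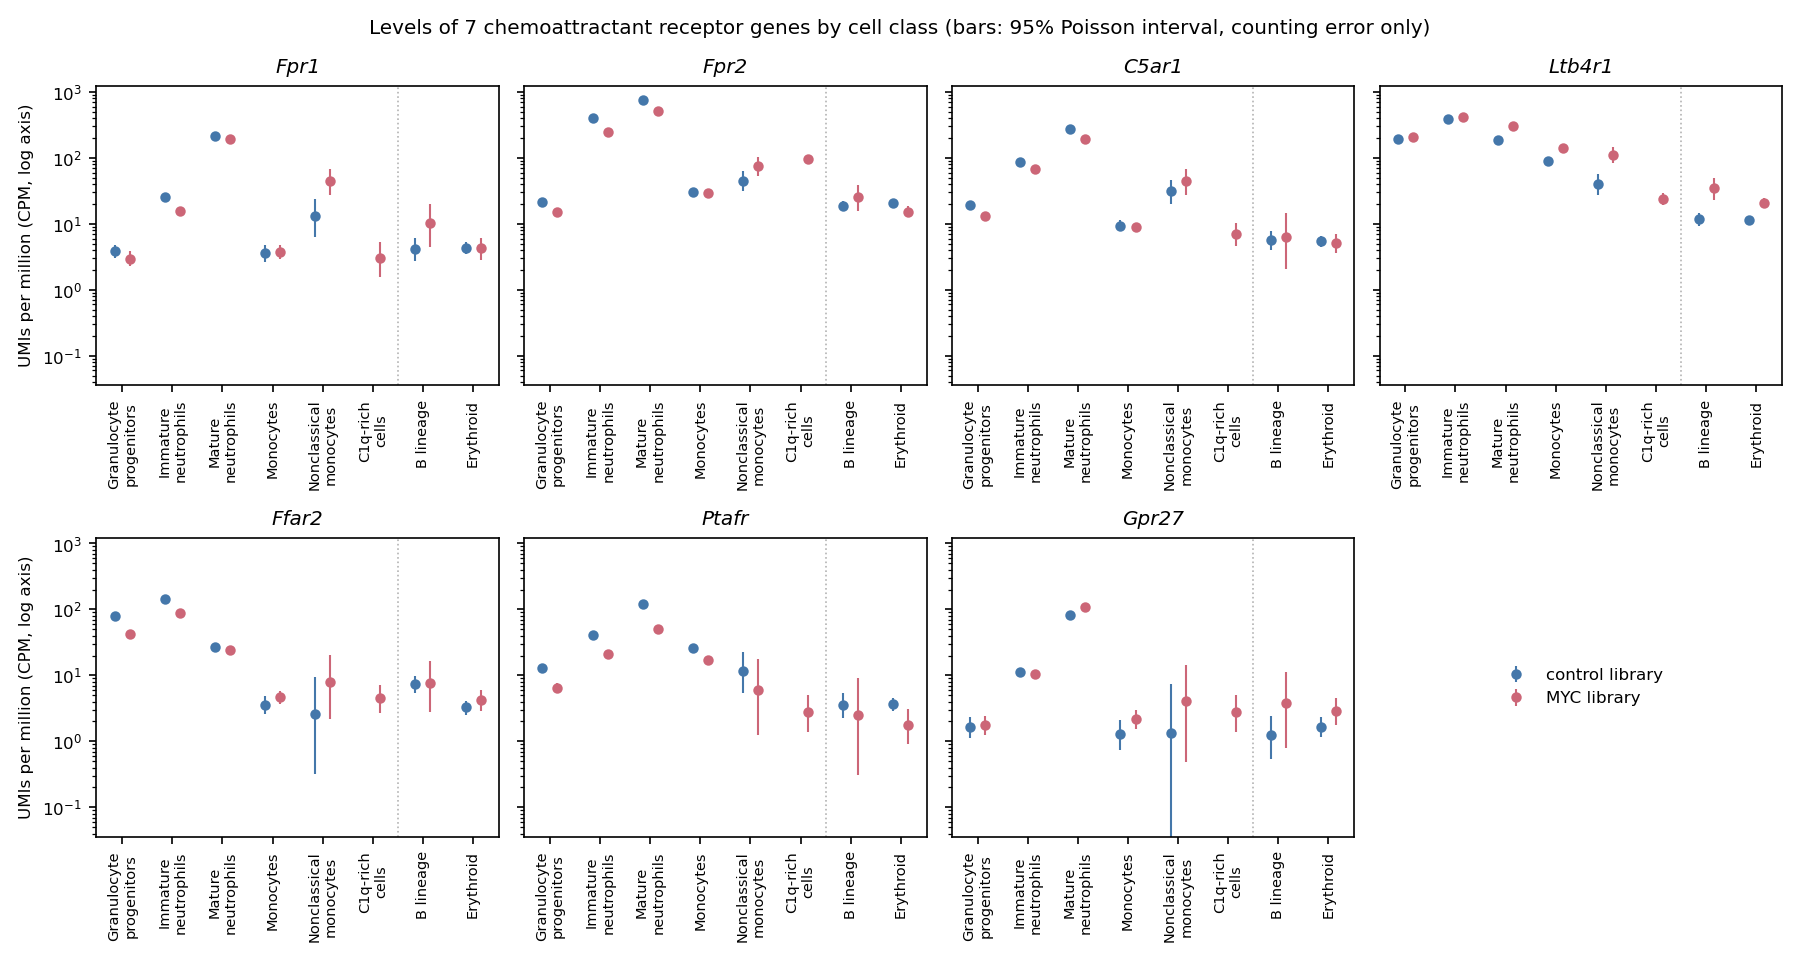
Level of each receptor gene (UMIs per 1000000 of the class, log axis) in each cell class of the control library (blue) and the MYC library (red), with 95% Poisson intervals; C1q-rich cells are shown for the MYC library only, and B lineage and erythroid cells right of the dotted line show the background of free RNA. Fpr2 reached the highest level of the 7 genes, 766 CPM in control mature neutrophils, while Ltb4r1 and Ffar2 peaked in immature neutrophils.

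Fpr1 was near background before the immature stage. It stood at 3.88 CPM in control and 2.98 CPM in MYC-library granulocyte progenitors, at 25.4 and 15.5 CPM in immature neutrophils, and at 213.9 and 195.2 CPM in mature neutrophils. Mature neutrophils thus held 8.41-fold the immature level in the control (7.68 to 9.23) and 12.6-fold in the MYC library (11.2 to 14.1), and per cell 3.39-fold and 6.04-fold. The progenitor level was no higher than that of erythroid cells, 4.33 and 4.24 CPM, which should lack the gene.

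Fpr2 was high one stage earlier. It went from 21.4 CPM in control progenitors to 405 CPM in immature neutrophils and to 766 CPM in mature neutrophils, a further 1.89-fold. In the MYC library the same classes held 15.3, 246 and 521 CPM. The progenitor levels were those of erythroid cells, 20.4 and 15.4 CPM, so Fpr2 was not set apart from free RNA in progenitors and the step from there, 18.9-fold in the control by CPM, starts from background. Per cell that step was 9.72-fold in control and 9.08-fold in MYC-library cells, and mature neutrophils held 0.762-fold and 1.02-fold the immature amount, so the peak in mature neutrophils holds for CPM and not for UMIs per cell in the control. The 2 immature clusters differed in Fpr2: cluster 5, led by Chil3, Camp and Orm1, held 134 CPM in control and 150 CPM in MYC-library cells, against 715 and 465 CPM in cluster 3, led by Ltf and Ngp.

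C5ar1 was higher at each later stage, on both scales. Control progenitors, immature and mature neutrophils held 19.5, 88.0 and 271 CPM, and those of the MYC library 13.2, 68.5 and 192 CPM. Ptafr followed the same order at lower levels, with 12.9, 40.4 and 122 CPM in the control and 6.54, 21.3 and 51.0 CPM in the MYC library. Per cell, mature neutrophils held 1.24-fold and 1.34-fold the immature amount of C5ar1 in control and MYC-library cells, and 1.22-fold and 1.15-fold that of Ptafr. Among the mature clusters of the control, Ptafr was lowest in cluster 1 at 78.0 CPM, intermediate in cluster 4 at 108 CPM and highest in cluster 2 at 178 CPM.

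Gpr27 was low until the mature stage. Progenitors held 1.65 CPM in control and 1.75 CPM in MYC-library cells, at the level of erythroid cells (1.65 and 2.93 CPM). Immature neutrophils held 11.3 and 10.4 CPM and mature neutrophils 81.4 and 110 CPM, which per cell is 2.90-fold and 5.10-fold the immature amount. Within the mature class, clusters 1 and 4 held 115 and 103 CPM in the control, while cluster 2 held 37.0 CPM. Gpr27 was also among the 10 leading genes of cluster 1, although it was not used in the clustering.

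Ltb4r1 showed another course. It was already at 195 CPM in control and 206 CPM in MYC-library progenitors, reached 384 and 414 CPM in immature neutrophils, and stood at 188 and 304 CPM in mature neutrophils. In the control the progenitor and mature levels did not differ beyond counting error, with a fold of 1.03 (0.986 to 1.09), whereas in the MYC library the mature level was 1.47-fold that of progenitors (1.42 to 1.53). Per cell the mature amount was lower than that of progenitors in both libraries, 0.20-fold in control and 0.40-fold in MYC-library cells, and immature neutrophils held 1.01-fold and 1.14-fold the progenitor amount. From cluster 3 to clusters 1, 4 and 2 its level went from 460 CPM to 292, 133 and 72.6 CPM in the control.

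Ffar2 was the member with more UMIs per 1000000 in progenitors than in mature neutrophils in both libraries. Control progenitors, immature and mature neutrophils held 79.1, 144 and 27.0 CPM, and those of the MYC library 42.6, 87.9 and 23.8 CPM. The mature level was 0.188-fold the immature level in the control (0.169 to 0.208) and 0.271-fold in the MYC library (0.244 to 0.301), and per cell 0.0757-fold and 0.130-fold. Immature neutrophils held 0.936-fold and 1.17-fold the progenitor amount per cell. Cluster 2 held only 4.98 CPM in the control, close to the 3.26 CPM of erythroid cells.

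**Figure D2:**
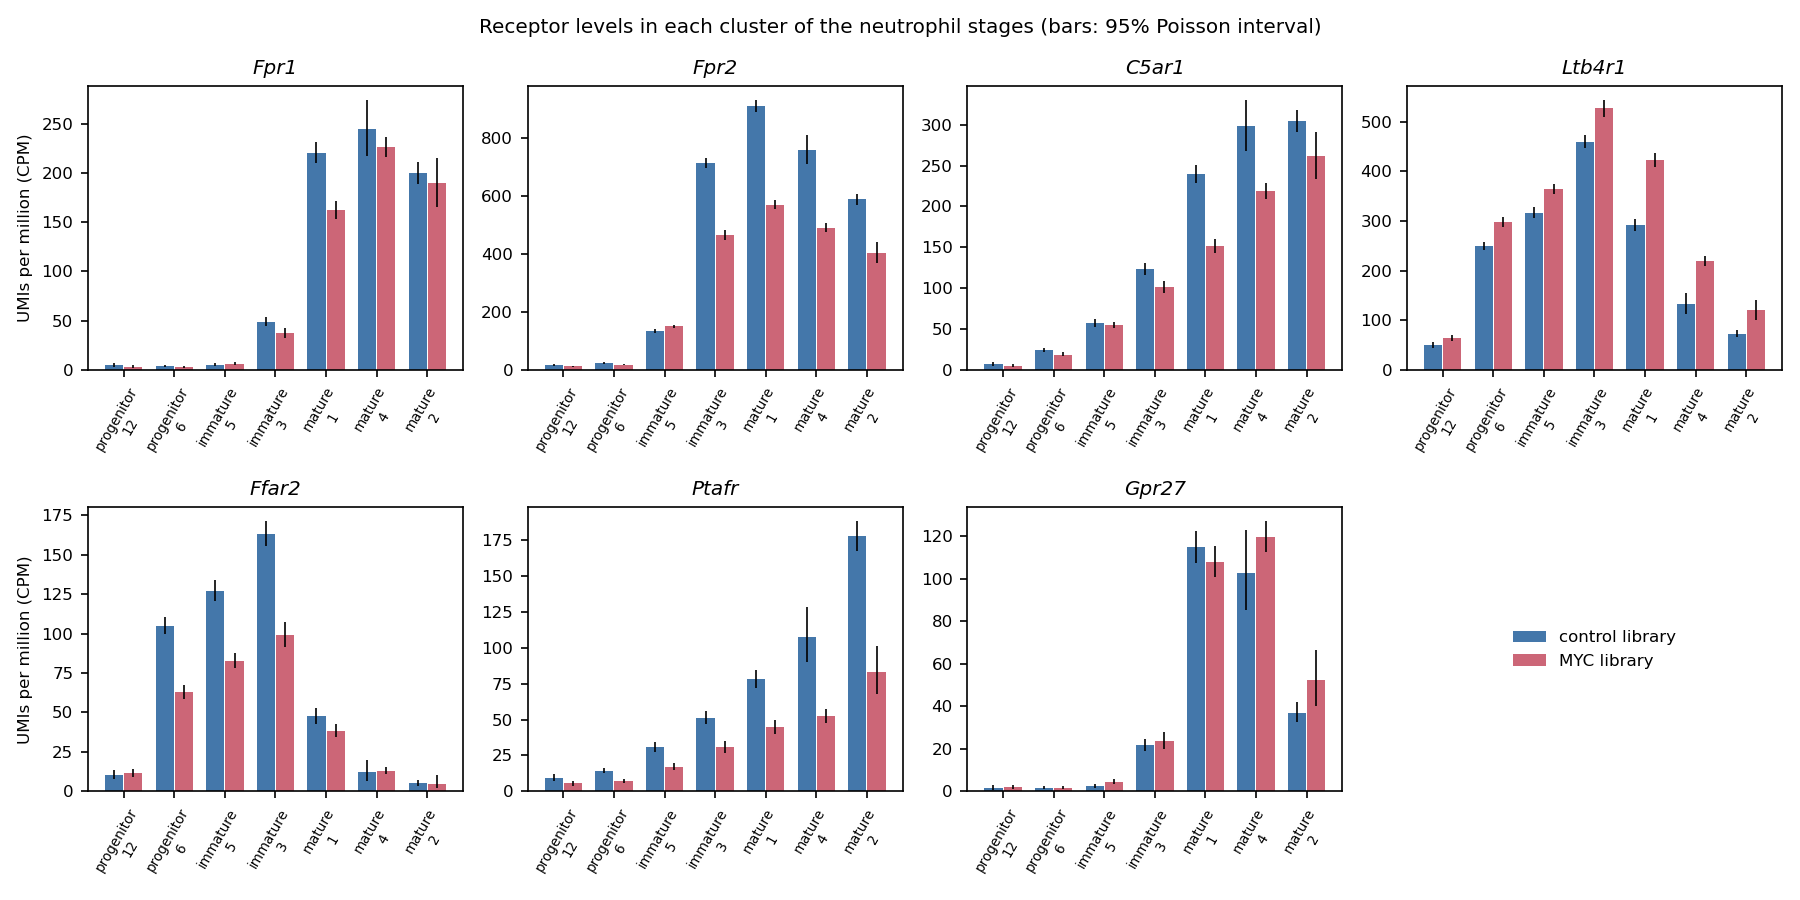
Level of each receptor gene (UMIs per 1000000, linear axes that differ between panels) in the 7 clusters of the neutrophil stages, control in blue and MYC library in red, with 95% Poisson intervals; the clusters are ordered by the named stage and not by a measured time. Ptafr is lower and Ltb4r1 higher in the MYC library in each of the 7 clusters.

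Single cells carried these receptors in combination. Cells hold different numbers of UMIs, so each cell was thinned to 1000 UMIs and shallower cells were left out. At that depth 77.1% of control mature neutrophils (75.7 to 78.4, 118 cells left out) and 73.0% of those of the MYC library (71.4 to 74.5, 65 left out) had a UMI of at least 1 of the 7 genes, against 96.5% and 96.7% unthinned. Immature neutrophils reached 67.8% and 60.3% after thinning, progenitors 26.7% and 24.8%, and monocytes 14.4% and 17.2%. B lineage cells, which should lack most of these receptors, reached 4.06% and 4.49%. UMIs of at least 3 different members were seen in 9.52% of control and 8.62% of MYC-library mature neutrophils.

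Free RNA released from neutrophils reaches every droplet, so the monocyte levels were set against a ceiling. The ceiling is the level that would follow if all UMIs of S100a8, an abundant neutrophil transcript, came in that class from free RNA with the composition of the whole library. Classes that should lack most of these receptors did not all stay at this ceiling: the 7 genes stood at 0.813 to 1.40 times it in erythroid cells and at 0.911 to 2.18 times it in B lineage cells, where Ffar2 (2.18 and 1.73 times) and Fpr1 (1.56 and 1.95 times) were highest. Monocytes exceeded both ranges for Ptafr, at 7.66 times in control and 10.2 times in MYC-library cells, and for Ltb4r1, at 5.99 and 7.32 times. Fpr2 (1.55 and 2.06 times) and C5ar1 (1.54 and 1.84 times) lay above the erythroid range. They were inside the range of the 7 genes in B lineage cells, and by that range not set apart from free RNA. Each was above its own B lineage value, which was 1.35 and 1.25 times for Fpr2 and 1.31 and 0.911 times for C5ar1. Fpr1 and Gpr27 lay within the erythroid range. Ffar2 stood at 0.752 times the ceiling in the control and at 1.52 times in the MYC library, on 44 and 82 UMIs.

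**Figure D3:**
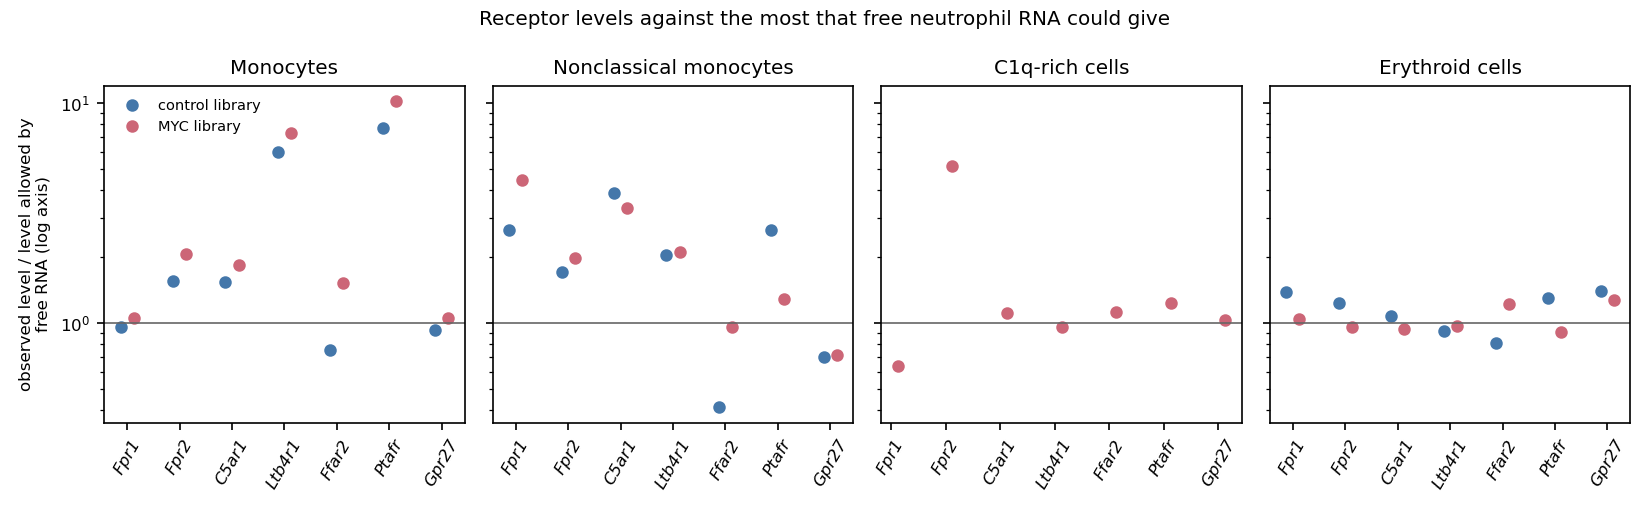
Observed level of each receptor gene divided by the level that free RNA could give (log axis; 1 means equal) in monocytes, nonclassical monocytes, C1q-rich cells and erythroid cells of the control (blue) and MYC (red) libraries; B lineage cells, which reached 2.18 times, are not drawn. Ptafr and Ltb4r1 stand 5.99 to 10.2 times above the ceiling in monocytes, and Fpr2 5.18 times in C1q-rich cells.

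Monocytes therefore carried measurable Ltb4r1, at 90.1 CPM in control and 140 CPM in MYC-library cells, and Ptafr, at 25.8 and 17.3 CPM. Their Fpr2 levels were 30.6 and 29.1 CPM and their C5ar1 levels 9.44 and 8.87 CPM. Fpr1, Ffar2 and Gpr27 stayed between 1.31 and 4.63 CPM, which is 0.752 to 1.52 times their ceilings.

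Nonclassical monocytes were few, and 4 or fewer UMIs per library were found for Ffar2 and Gpr27. C5ar1 stood at 31.6 CPM in control (24 UMIs) and 44.3 CPM in MYC-library cells (22 UMIs), 3.87 and 3.32 times its ceiling. Fpr1 stood at 13.2 CPM on 10 UMIs and 44.3 CPM on 22 UMIs, 2.63 and 4.45 times its ceiling. Ptafr stood at 11.8 CPM on 9 UMIs and 6.04 CPM on 3 UMIs, 2.65 and 1.28 times its ceiling. Ltb4r1 stood at 40.8 and 110.7 CPM (2.04 and 2.10 times its ceiling) and Fpr2 at 44.7 and 76.5 CPM (1.70 and 1.96 times). Both were inside the range of the 7 genes in B lineage cells, and by that range not set apart from free RNA. Each was above its own B lineage value, 1.10 and 1.24 times for Ltb4r1 and 1.35 and 1.25 times for Fpr2. Neutrophil transcripts moved with the Ltb4r1 and Fpr2 levels of nonclassical monocytes: S100a8 stood at 6041 CPM in control and 12338 CPM in MYC-library cells, and the summed immature neutrophil markers at 4071 and 8221 CPM, while those of conventional dendritic cells stood at 2304 and 531 CPM. Their part in the difference was not tested.

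C1q-rich cells of the MYC library carried Fpr2 at 96.7 CPM (87.3 to 106.9, 384 UMIs), 3.33-fold the monocyte level (2.91 to 3.80) and 5.18 times the ceiling. The other 6 members stood at 0.635 to 1.23 times theirs. Ltb4r1 was at 24.2 CPM there, 0.173-fold the monocyte level (0.140 to 0.212), and Ptafr at 2.77 CPM.

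The order of levels over classes was read for each gene with its counting error. For C5ar1 it ran from mature to immature neutrophils, nonclassical monocytes, progenitors and monocytes in both libraries, each step beyond counting error. For Ltb4r1 the control order was immature neutrophils, then progenitors and mature neutrophils, which did not differ, then monocytes and nonclassical monocytes. In the MYC library it was immature neutrophils, mature neutrophils, progenitors and monocytes, and monocytes and nonclassical monocytes did not differ beyond counting error (1.26-fold, 0.967 to 1.68). For Fpr2 the control levels of nonclassical and other monocytes did not differ beyond counting error (1.46-fold, 0.997 to 2.08).

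The study compares the marrow with and without the MYC transgene, and each receptor was set side by side in the 2 libraries. Ptafr was lower and Ltb4r1 was higher in the MYC library in nearly every cell group that could be measured. Some of these groups, such as erythroid cells, held both genes near their free RNA ceilings, so their direction adds no separate support. In progenitors Ltb4r1 had a log2 ratio of 0.08, which turned to -0.35 with the libraries clustered separately. Fpr2 and C5ar1 were lower in all 3 neutrophil stages, while their intervals included 0 in monocytes taken as 1 class. The Fpr2 levels in progenitors were those of erythroid cells. Both genes' monocyte levels were, by the range of the 7 genes in B lineage cells, not set apart from free RNA. This contrast between neutrophils and monocytes was not tested. A log2 ratio below is the CPM of the MYC library over that of the control. Over all genes with at least 50 UMIs in a class, the median of this ratio was -0.20 in progenitors, -0.18 in immature neutrophils, -0.21 in mature neutrophils and -0.15 in monocytes. Median-of-ratios scaling, which centres that median near 0, adds 0.20, 0.18, 0.21 and 0.15 to each ratio in these classes. Under it the share of higher genes among all genes past 1.5-fold goes from 27.5% to 62.6% in progenitors, from 36.2% to 64.8% in immature neutrophils, from 29.4% to 55.1% in mature neutrophils and from 35.8% to 60.4% in monocytes. Ptafr was lower and Ltb4r1 higher in all 4 classes under both scalings, Fpr2 and C5ar1 lower in the 3 neutrophil stages under both, and Fpr1 in mature neutrophils turned to 0.079.

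In mature neutrophils Ptafr went from 122 CPM in the control (116 to 128) to 51.0 CPM in the MYC library (47.7 to 54.4), a log2 ratio of -1.26 (-1.37 to -1.14). Fpr2 went from 766 to 521 CPM (-0.56, -0.60 to -0.52) and C5ar1 from 271 to 192 CPM (-0.50, -0.57 to -0.44). Ltb4r1 went the other way, from 188 CPM (181 to 195) to 304 CPM (296 to 312), a ratio of 0.69 (0.63 to 0.76). Gpr27 went from 81.4 to 110 CPM (0.43, 0.33 to 0.54). Fpr1 was 213.9 and 195.2 CPM (-0.13, -0.20 to -0.06) and Ffar2 27.0 and 23.8 CPM, with an interval that included 0 (-0.18, -0.38 to 0.02). Of the 7 genes, 1 lay past 1.5-fold higher (Ltb4r1), where 9.21% of all measured genes did, and 1 past 1.5-fold lower (Ptafr), where 22.1% did. The members' median was -0.18. With median-of-ratios scaling Gpr27 (0.64) also lay past 1.5-fold higher, and Ptafr stood at -1.05, while the shares of all measured genes became 15.3% higher and 12.5% lower. The Ffar2 ratio ran from -0.83 with the libraries clustered separately to 0.92 with cells of 1000 or more UMIs and 500 or more genes.

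Mature neutrophils of the MYC library held more UMIs per cell, with medians of 5278 against 3853. Counted per cell in place of per 1000000 UMIs, the ratio of Fpr2 was -0.16, of C5ar1 -0.10, of Ptafr -0.86, of Ltb4r1 1.09 and of Gpr27 0.83, and Fpr1 turned to 0.27. The 3 mature clusters were filled unequally as well. Within clusters 1, 4 and 2, Ptafr stood at -0.80, -1.04 and -1.09, Fpr2 at -0.68, -0.63 and -0.55, and Ltb4r1 at 0.54, 0.72 and 0.72. Gpr27 stood at -0.087 in cluster 1, where its interval included 0 (-0.22 to 0.05), at 0.22 in cluster 4 and at 0.50 in cluster 2, so its higher level over the whole class was not seen in each cluster. The Ltb4r1 ratio in mature neutrophils ran from 0.37 with the libraries clustered separately to 1.36 with cells of 1000 or more UMIs and 500 or more genes. It was short of 1.5-fold in the first of these, with doublets kept (0.55) and under 5% mitochondrial UMIs (0.47). The summed markers of immature neutrophils in the mature class were 36763 CPM in control and 44822 CPM in MYC-library cells, and their part in these ratios was not tested.

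In immature neutrophils Fpr2 went from 405 to 246 CPM (-0.72, -0.77 to -0.67), Ffar2 from 144 to 87.9 CPM (-0.71, -0.80 to -0.63) and Ptafr from 40.4 to 21.3 CPM (-0.92, -1.09 to -0.75). Fpr1 went from 25.4 to 15.5 CPM (-0.71, -0.91 to -0.51). C5ar1 was lower by less, from 88.0 to 68.5 CPM (-0.36), and Ltb4r1 slightly higher, from 384 to 414 CPM (0.11, 0.07 to 0.15). Gpr27 had an interval that included 0 (-0.13, -0.40 to 0.14), and its ratio ran from -1.31 with cells of 1000 or more UMIs and 500 or more genes to 1.29 with the libraries clustered separately. It stood at 0.13 in cluster 3 and at 0.99 in cluster 5, the latter on 26 and 66 UMIs. Past 1.5-fold lower lay 4 of the 7 genes (Fpr1, Fpr2, Ffar2 and Ptafr), against 17.6% of all measured genes, and past 1.5-fold higher 0 of 7, against 9.98%. With median-of-ratios scaling 1 of the 4 stayed past 1.5-fold, Ptafr at -0.74, and Fpr1, Fpr2 and Ffar2 stood at -0.53, -0.54 and -0.53, while the share of all measured genes past 1.5-fold lower went from 17.6% to 8.58%. Here too the clusters differed in size, cluster 3 with 1330 and 826 cells and cluster 5 with 789 and 1057. Fpr2 was lower in cluster 3 (-0.62) and higher in cluster 5 (0.16, 0.06 to 0.25), and Fpr1 stood at -0.40 in cluster 3 and at 0.29 in cluster 5 with an interval that included 0. Ffar2 and Ptafr were lower in both clusters, Ffar2 at -0.72 and -0.62 and Ptafr at -0.74 and -0.84. With the libraries clustered separately Fpr2 stood at -0.31 and Fpr1 turned to 0.70 in immature neutrophils, and Fpr1 also turned, to 0.15, with doublets kept, while it reached -1.68 with cells of 1000 or more UMIs and 500 or more genes. At Leiden resolution 0.5, with doublets kept and under 5% mitochondrial UMIs Fpr2 was also short of 1.5-fold, at -0.56, -0.48 and -0.48, and in the first and last of these Fpr1 stood at -0.34 and -0.0089. Per cell Fpr1, Fpr2 and Ffar2 stood at -0.57, -0.58 and -0.57. The summed markers of mature neutrophils moved with both genes in this class, from 3051 to 1890 CPM, and their part was not tested.

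In granulocyte progenitors Ffar2 went from 79.1 to 42.6 CPM (-0.89, -1.01 to -0.77) and Ptafr from 12.9 to 6.54 CPM (-0.99, -1.29 to -0.68), so 2 of the 7 genes lay past 1.5-fold lower, against 17.7% of all measured genes. Past 1.5-fold higher lay 0 of 7, against 6.71%. With median-of-ratios scaling the same counts stood against 8.18% lower and 13.7% higher. The 2 progenitor clusters were filled unequally, cluster 6 with 797 and 711 cells and cluster 12 with 251 and 356. Cluster 12 was led by Gria3, Irf8 and Lgals1. It was named by the progenitor list, with Ctsg and Prtn3 among its leading genes, but Irf8 is on the monocyte list. Whether its cells belong to the neutrophil line was not tested, so the class can mix lineages. The summed monocyte markers of the class were 2229 CPM in control and 2038 CPM in MYC-library cells. In cluster 6 Ffar2 was 105 and 62.8 CPM (-0.74), and in cluster 12 it was 10.4 and 11.4 CPM (0.13). The summed markers of immature neutrophils moved with Ffar2 and Ptafr in progenitors, from 36437 to 28902 CPM, Ltf from 1643 to 840 CPM and Fcnb from 1750 to 750 CPM, and their part was not tested. Fpr2 stood at 21.4 and 15.3 CPM (-0.49), the level of erythroid cells, and C5ar1 at 19.5 and 13.2 CPM (-0.56), both low. Ltb4r1 was 195 and 206 CPM (0.08, 0.02 to 0.14), and turned to -0.35 with the libraries clustered separately. At Leiden resolution 0.5 the Ffar2 ratio was -0.49, short of 1.5-fold.

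In monocytes Ltb4r1 went from 90.1 CPM (84.8 to 95.6) to 140 CPM (134 to 145), a log2 ratio of 0.64 (0.53 to 0.74), and Ptafr from 25.8 CPM (23.0 to 28.8) to 17.3 CPM (15.5 to 19.4), a ratio of -0.57 (-0.80 to -0.34). With the 20 top genes left out of the total, and likewise with doublets kept, Ltb4r1 stood at 0.50, short of 1.5-fold. Both lay far above their ceilings, which were 15.05 and 19.1 CPM for Ltb4r1 and 3.37 and 1.71 CPM for Ptafr. Monocyte cluster 7 held 701 control and 777 MYC-library cells and cluster 9 held 305 and 520. Over these clusters Ltb4r1 ran from 0.53 to 0.75 and Ptafr from -0.53 to -0.44. In monocytes the summed monocyte markers went from 7055 to 5067 CPM, those of nonclassical monocytes from 227 to 133 and those of conventional dendritic cells from 386 to 454. Their part was not tested. Fpr2 (-0.07, -0.27 to 0.12) and C5ar1 (-0.09, -0.45 to 0.27) had intervals that included 0. C5ar1 split between the monocyte clusters, at -0.69 in cluster 9 with an interval below 0 and at 0.34 in cluster 7. Past 1.5-fold higher lay 2 of the 7 genes (Ltb4r1, and Gpr27 on 16 and 38 UMIs with an interval of -0.17 to 1.65), against 9.65% of all measured genes, and past 1.5-fold lower 0 of 7, against 17.3%. The Gpr27 ratio was short of 1.5-fold under 5% mitochondrial UMIs (0.11), in cells of 1000 or more UMIs and 500 or more genes (0.074), at Leiden resolution 2 (0.47) and with the libraries clustered separately (0.52), and it turned to -0.057 with doublets kept. With median-of-ratios scaling 2 of 7 higher and 0 lower stood against 15.6% and 10.2%. In nonclassical monocytes 2 members reached 50 UMIs, and both lay past 1.5-fold higher, Ltb4r1 at 1.44 (0.78 to 2.12) and Fpr2 at 0.77 (0.07 to 1.49), where 13.4% of all measured genes did. Past 1.5-fold lower lay 0 of 2, against 18.4%.

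**Figure D4:**
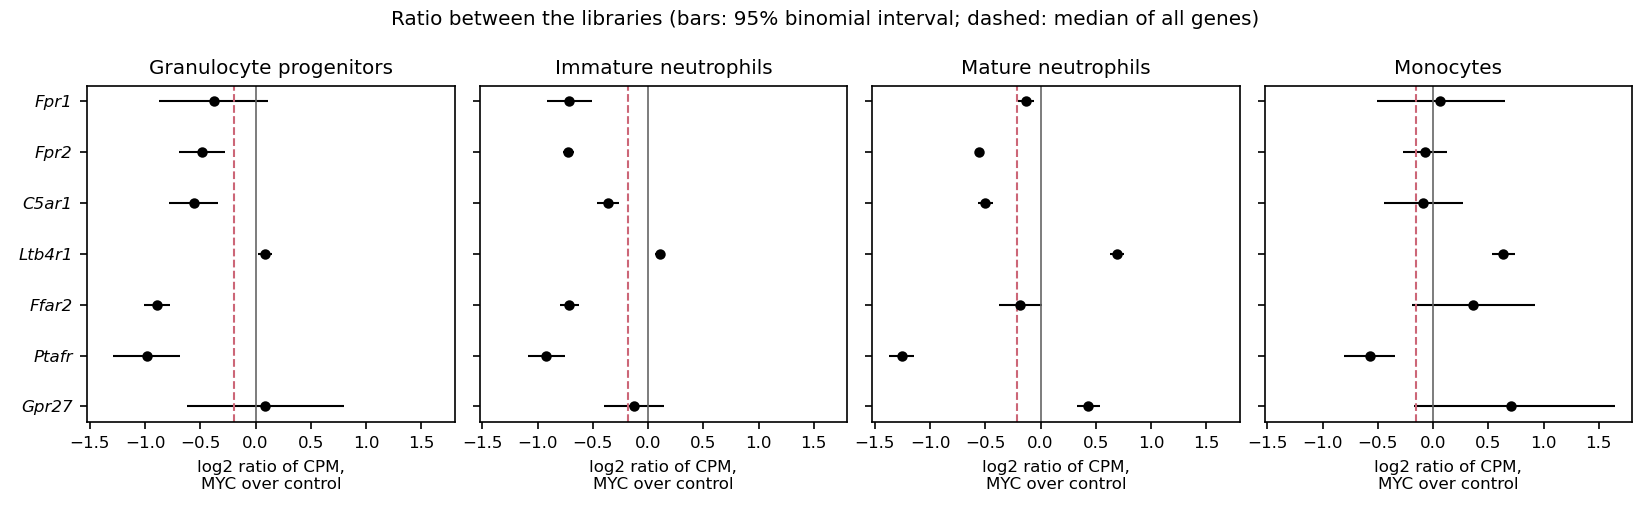
Log2 ratio of each receptor gene's CPM in the MYC library over the control in 4 classes, with 95% binomial intervals that cover counting error only; the solid line marks 0 and the dashed line the median of all measured genes. Ptafr lies left of 0 in all 4 classes, from -1.26 to -0.57, and Ltb4r1 right of 0, from 0.08 to 0.69.

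The same directions were counted over single clusters with at least 50 cells per library and 50 UMIs of the gene. The 7 clusters of the neutrophil stages include cluster 12, which the monocyte marker Irf8 also led. Ptafr was lower in the MYC library in 12 of 12 such clusters, each with an interval below 0, and in the 7 clusters of the neutrophil stages its log2 ratio ran from -1.09 to -0.74. Ltb4r1 was higher in 18 of 19 clusters, 16 of them with an interval above 0, and in all 7 neutrophil and both monocyte clusters. The exception was the low-UMI cluster 0 (-0.03). These clusters include cells whose UMIs are at the level of free RNA: in erythroid cells Ltb4r1 went from 11.5 to 20.9 CPM and Ptafr from 3.65 to 1.76 CPM, each near its ceiling. C5ar1 was lower in 7 of 7 neutrophil clusters, 5 of them with an interval below 0. Among the monocyte clusters it was lower in cluster 9 (-0.69, with an interval below 0) and higher in cluster 7 (0.34). Fpr2 was lower in 6 of 7 neutrophil clusters.

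Other genes of the same signalling route were read from 4 lists, over whole classes and not within single clusters. The mature clusters were filled unequally, and Csf3r, a leading gene of cluster 2, went from 1029 to 384 CPM in mature neutrophils. The part of this mix of clusters in the list ratios was not tested. Their counts depend on the scaling, and those with median-of-ratios scaling are given second, where the shares of all genes are 12.5% lower and 15.3% higher in mature neutrophils and 10.2% and 15.6% in monocytes. Of 17 other chemoattractant receptors, 8 reached 50 UMIs in mature neutrophils, and 6 lay past 1.5-fold lower and 2 higher, against 22.1% and 9.21% of all measured genes, with a median of -0.87 against -0.21 over all genes. With median-of-ratios scaling 5 were lower and 2 higher. Cxcr1, a chemokine receptor, stood at -1.95 on 85 and 26 UMIs, and C5ar2, the second C5a receptor, went from 72.6 to 24.2 CPM (-1.58). Gpr84 stood at 0.77 and the monocyte chemokine receptor Ccr2 at 0.82. Ccr2 was 17.8 and 31.5 CPM in mature neutrophils against 1351 and 1107 CPM in monocytes, and the monocyte markers Fn1 (13.2 and 26.9 CPM) and F13a1 (13.8 and 19.5 CPM) moved with it in mature neutrophils. Their part was not tested. In monocytes 1 of 7 measured receptors lay past 1.5-fold lower and 1 higher, against 17.3% and 9.65% of all measured genes, and with the other scaling 1 lower and 2 higher. Cxcr4, the CXCL12 receptor that retains cells in marrow, went from 113 to 62.0 CPM there (-0.87), and Cxcr2, a neutrophil chemokine receptor, stood at -0.53. Cxcr2 was 23.7 and 16.4 CPM in monocytes, 0.898 and 1.01 times its free RNA ceiling, against 1539 and 868 CPM in mature neutrophils, so this value was not set apart from free RNA.

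Of 27 genes of G proteins and downstream signalling, 26 were measured in mature neutrophils, 6 past 1.5-fold lower, against 22.1% of all genes, and 1 higher, against 9.21% (median -0.30). With median-of-ratios scaling this became 1 lower, Pik3cg, and 2 higher, Gng5 and Gng10. Pik3cg, the catalytic subunit of PI3Kγ, went from 134 to 76.1 CPM (-0.81) and Prkcd, a protein kinase C, from 319 to 187 CPM (-0.77), while the G protein γ subunit genes Gng5 (0.78) and Gng10 (0.56) were higher. In monocytes 7 of 27 lay past 1.5-fold lower, against 17.3% of all genes, and 0 higher, against 9.65%, with Prkcd at -0.88 and Gnb4 at -0.94, and with Gng5 at 0.43 and Gng10 at 0.13. The other scaling gave 5 lower and 1 higher. Of 12 regulators of receptors and G proteins, 5 lay past 1.5-fold lower and 1 higher in mature neutrophils (median -0.42), against the same 22.1% and 9.21%, and with median-of-ratios scaling 1 lower, Rgs2, and 3 higher, Rgs1, Grk3 and Grk6. Rgs2, which speeds the shut-off of G proteins, went from 652 to 265 CPM (-1.30) and Arrb1, a β-arrestin, stood at -0.77, while Rgs1 stood at 1.19 on 39 and 105 UMIs and Grk3 at 0.57 on 47 and 82 UMIs. In the MYC library C1q-rich cells held Rgs1 at 705 CPM and Grk3 at 403 CPM, and in mature neutrophils C1qa went from 2.66 to 7.16 CPM, C1qb from 1.56 to 11.4 CPM and C1qc from 2.01 to 6.66 CPM, while the summed macrophage markers went from 241 to 199 CPM. Their part was not tested. In monocytes 3 of 12 lay past 1.5-fold lower and 0 higher, against 17.3% and 9.65%, with Arrb1 at -1.08, Grk3 at -0.85, Grk6 at 0.22 and Rgs10 at 0.39, and 2 lower and 0 higher with the other scaling.

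Among 11 genes of ligands and of enzymes that make or degrade them, 9 were measured in mature neutrophils, 4 past 1.5-fold lower and 1 higher (median -0.57), against 22.1% and 9.21% of all genes, and 1 lower, Lpcat1, and 2 higher, Anxa1 and Alox5ap, with median-of-ratios scaling. Lpcat1, an acyltransferase, stood at -1.08. Pla2g7, which degrades the Ptafr ligand platelet-activating factor, went from 236 to 141 CPM (-0.74). It was also a leading gene of cluster 2, which held mostly control cells. Anxa1, the gene of annexin A1, went from 1529 to 2581 CPM (0.76), and Alox5ap, which serves leukotriene synthesis, from 842 to 1260 CPM (0.58). In monocytes 2 of 10 lay past 1.5-fold lower, against 17.3%, and 2 higher, against 9.65%: Alox5, the 5-lipoxygenase, stood at -1.31 and complement C3 at -1.07, while Pla2g7 stood at 0.76 and Saa3, a serum amyloid A, at 4.50 on 25 and 825 UMIs. With the other scaling 2 were lower and 3 higher.

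The genes most alike to each receptor were found by Pearson correlation of log2(CPM + 1) over 26 points, each a named class in 1 library. The points share their libraries and the free RNA in them, so the values are a description. Fpr2 was most like Cd33 (0.956), Mmp25 and Ly6g, Fpr1 most like Slfn4 (0.925), Mmp9 and Dhrs9, and C5ar1 most like Crispld2 (0.948), Slc27a4 and Padi4. Ltb4r1 was most like Anxa1 (0.954), Cebpd and Anxa3, and Gpr27 most like Scrg1 (0.932), Amer2 and 1700047M11Rik. Ffar2 (Cebpe at 0.882, Lta4h and Gys1) and Ptafr (A530064D06Rik at 0.855, Nfam1 and Zfhx3) had looser neighbours. Among the receptors themselves Fpr2 and C5ar1 were most alike (0.870), and Ffar2 and Ptafr least (0.200).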

How the data were processed

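The unit of the data is the whole-number UMI count per gene and barcode, as deposited by the authors for 2 libraries, 1 per genotype. The libraries were made with a 10x Chromium 3′ kit per the labels' protocols, and counted, per the file headers, by Cell Ranger 6.0.0 on GRCm38 (mm10) per the submitters' processing notes, which also name Seurat. The annotation and the calling of cells are not given in the sources used here. The control held 131884603 UMIs in 17073 barcodes and the MYC library 110012176 in 14496. Barcodes needed 500 or more UMIs, 200 or more genes and a mitochondrial share under 10%. Scrublet (in scanpy 1.11.5) called 4.53% of control and 1.95% of MYC-library cells as doublets, which were removed. Loading would give 13.7% and 11.6% (0.8% for each 1000 barcodes), so some were not found. Nothing was corrected for free RNA.

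Both libraries were clustered together (2000 variable genes, 30 components, 15 neighbours, Leiden resolution 1) without the members, the listed pathway genes, Myc, MYC and mitochondrial, ribosomal and antigen receptor genes. The 25 clusters were named from marker lists of 19 cell types. A cluster of low UMIs (cluster 0), one led by Tmcc2, Xpo7 and Bpgm (cluster 16, 301 control and 136 MYC-library cells) and an interferon-led one (cluster 24) stayed unnamed. A different clustering gives different class borders. CPM have exact Poisson intervals, ratios exact conditional binomial intervals and shares of cells Clopper-Pearson intervals, which cover counting error only. The ratio intervals were also computed on simulated counts. These cannot show how far libraries of 1 genotype differ, which was not measured. Median-of-ratios scaling, UMIs per cell and 8 other settings were tried.

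The members, lists and markers were chosen with earlier results of these data known. All 7 members are named whatever their value. From each pathway list the text names the 2 highest and the 2 lowest ratios in mature neutrophils and in monocytes among genes with an interval that excluded 0. For likeness it names the 3 genes with the highest correlation, among genes that averaged 20 CPM or more in mature neutrophils, monocytes or C1q-rich cells. Gene models are those of GENCODE vM21 (GRCm38), and upstream bases those of RefSeq (GRCm38.p6), which had entries for 6 of the 7 members.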

Additional observations from a re-analysis of the deposited data

Results flagged for a closer look

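Fpr2 differed in direction between classes. Its log2 ratio of the MYC library over the control was 0.77 in nonclassical monocytes, on 34 and 38 UMIs, against -0.49 in granulocyte progenitors, -0.72 in immature neutrophils and -0.56 in mature neutrophils, and all 4 counting intervals excluded 0. The difference between the classes was not tested, since each group has 1 library. The progenitor levels of Fpr2, 21.4 and 15.3 CPM, were those of erythroid cells, 20.4 and 15.4 CPM, and so were at the level of free RNA. In nonclassical monocytes S100a8 stood at 6041 CPM in control and 12338 CPM in MYC-library cells, and Fpr2 at 1.70 and 1.96 times the level that free RNA could give. That is inside the range of 0.911 to 2.18 times seen over the 7 genes in B lineage cells, where Fpr2 itself stood at 1.35 and 1.25 times.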

How the results depend on the processing

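Each member's ratio in 4 classes was recomputed under 10 alternatives, 280 values in all: 169 moved by less than their counting interval, 105 by more, and 6 whose interval had excluded 0 turned. Ptafr kept its sign in all 4 classes under each of the 10, and Ltb4r1 in immature and mature neutrophils and monocytes. Ltb4r1 in progenitors turned to -0.35 with separate clustering of the libraries and to -0.011 with cells of 1000 or more UMIs and 500 or more genes. Fpr1 in immature neutrophils turned to 0.70 with separate clustering and to 0.15 with doublets kept. Fpr1 in mature neutrophils turned to 0.079 with median-of-ratios scaling and to 0.27 per cell. Ffar2 in mature neutrophils, whose interval included 0, ran from -0.83 with separate clustering to 0.92 with 1000 or more UMIs and 500 or more genes. The causes were not tested.

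The summed UMIs of the 7 members, most of them from Fpr2 and Ltb4r1, had a log2 ratio of -0.26 in mature neutrophils. This became -0.31 with separate clustering, -0.16 with 1000 or more UMIs and 500 or more genes, -0.047 with median-of-ratios scaling, -0.22 when each cell's CPM was averaged and -0.17 without the 20 most abundant genes, and it turned to 0.14 per cell. In immature neutrophils -0.35 became -0.25 at resolution 0.5, -0.12 with separate clustering, -0.22 with doublets kept, -0.23 under 5% mitochondrial UMIs, -0.54 with 1000 or more UMIs and 500 or more genes, -0.17 with median-of-ratios scaling, -0.20 per cell, -0.40 when each cell's CPM was averaged and -0.38 without the 20 most abundant genes. In monocytes 0.32 became 0.24 at resolution 0.5, 0.44 with separate clustering, 0.094 with doublets kept, 0.24 under 5% mitochondrial UMIs, 0.48 with median-of-ratios scaling, 0.50 per cell and 0.19 without the 20 most abundant genes.

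Single clusters were added after seeing the data. The summed ratio was -0.35 in cluster 1, -0.32 in cluster 2, -0.31 in cluster 4, -0.30 in cluster 3, and turned to 0.012 in cluster 5. Gpr27 turned to -0.087 in cluster 1, Fpr1 to 0.29 and Fpr2 to 0.16 in cluster 5, and Ffar2 to 0.13 in cluster 12. Of the monocyte values, C5ar1 turned to 0.34 and Ffar2 to -0.19 in cluster 7, and Fpr2 to 0.30 in cluster 9. In cluster 9 C5ar1 stood at -0.69 and Ffar2 at 0.81. With no minimum UMIs the share of genes past 1.5-fold in mature neutrophils was 18.9% higher and 31.1% lower. No paired analysis was possible because each group has 1 library.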

Other observations

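Outside the phagocyte classes, Ltb4r1 was carried by basophils or mast cells, at 143 CPM in control (126 to 162, 245 UMIs in 187 cells) and 230.7 CPM in MYC-library cells (206.8 to 257, 339 UMIs in 147 cells), a log2 ratio of 0.69 (0.45 to 0.93). C5ar1 stood at 23.3 and 31.3 CPM in the same cells. Megakaryocytes carried Ffar2 at 28.0 CPM in control and 32.3 CPM in MYC-library cells, 7.76 and 13.6 times its ceiling. Its level in mature neutrophils was 27.0 and 23.8 CPM. Ptafr was found in conventional dendritic cells, at 90.9 CPM in control and 45.9 CPM in MYC-library cells (-0.99, -1.42 to -0.57), and in plasmacytoid dendritic cells, at 56.0 CPM (101 UMIs) and 32.3 CPM (11 UMIs). Control conventional dendritic cells thus carried Ptafr at a level between those of immature and mature neutrophils.

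Cluster 24, led by interferon-response genes such as Ifit1, Ifit3 and Rsad2 and left unnamed, held 115 control and 27 MYC-library cells. It carried Fpr2 at 791 and 516 CPM, C5ar1 at 283 and 181 CPM, Fpr1 at 256 and 135 CPM and Ltb4r1 at 135 and 232 CPM. Ffar2 stood there at 24.6 CPM in control, on 12 UMIs, and at 129 CPM in MYC-library cells, on 20 UMIs. The MYC-library cells are under the 50 cells required of the clusters counted above.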
